A study of Mus musculus with 2 samples.

Results

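Matricellular proteins are secreted into the extracellular matrix and act mainly on how cells attach, signal and organise that matrix, rather than as its load-bearing fibres. The genes grouped under this name here are 2 tenascins (Tnc, Tnn), 3 thrombospondins (Thbs1, Thbs2, Thbs3), osteonectin (Sparc) and periostin (Postn). The others are fibronectin (Fn1), versican (Vcan) and extracellular matrix protein 1 (Ecm1). All 10 were chosen by name, and every probe set that the array's annotation gives to exactly 1 of them was taken. This gave 24 probe sets for 10 genes, out of 18193 genes on the array. A probe set is a group of short probes against 1 transcript, and its signal is a linear intensity.

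Tenascins and thrombospondins are large multimeric glycoproteins that bind integrins and other receptors and that loosen or modulate cell adhesion. Sparc binds collagen and mineral, and is among the most abundant non-collagen proteins of bone. Periostin is made by the periosteum and by osteoblasts and links collagen, tenascin-C and fibronectin. Fibronectin is the adhesive scaffold on which collagen is assembled, so the definition above covers it only in part. Versican is a hyaluronan-binding proteoglycan.

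The cells were primary osteoblasts, the bone-forming cells, isolated from the calvaria (the skull vault) of CD1 mice aged 7 days. Both cultures were grown in medium with 10% fetal bovine serum, then kept for 24 h without serum in medium with 0.25% bovine serum albumin, and then treated for 24 h. One culture received the vehicle DMSO, and the other received 2 µM PP1, an inhibitor of c-Src and related tyrosine kinases. Each condition was measured on 1 array, so there is no replicate, no test between conditions and no p-value, and every value describes these 2 arrays. The labels do not give the number of animals behind a culture, and a difference in cell makeup cannot be told apart from a difference in RNA per cell.

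The PP1 array was dimmer, and its signals were multiplied by 1.68 to give both arrays the same mean after trimming 2% of probe sets at each end. All directions below are therefore relative to the bulk of genes. A floor of 31.7, the median over both arrays without control probe sets, replaced dimmer scaled signals. Where a gene had several probe sets, the one with the largest mean log2 signal stood for it. The log2 ratio is PP1 minus DMSO. As an error that these arrays can give, the SD of the log2 ratio between probe sets of the same gene was 0.41 over 4745 genes. It covers disagreement between probe sets and not variation between cultures. Of 12133 measured genes, 1.55% were at least 2-fold lower and 3.02% at least 2-fold higher.

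The promoters of Tnc and Ecm1, the genes with the lowest ratios of the 10, and of Sparc, whose bright probe sets were higher, show what sequence lies at these genes' starts. Each window runs from 250 bases before to 50 bases after the annotated start, and the sequences are RefSeq's of build GRCm38.p6. They are printed 5′ to 3′ on the gene's strand, with motif matches in capitals. The Tnc window is chr4:64046966-64047265 on the minus strand, the Ecm1 window chr3:95739520-95739819 on the minus strand, and the Sparc window chr11:55420031-55420330 on the minus strand.
Tenascin-C promoter: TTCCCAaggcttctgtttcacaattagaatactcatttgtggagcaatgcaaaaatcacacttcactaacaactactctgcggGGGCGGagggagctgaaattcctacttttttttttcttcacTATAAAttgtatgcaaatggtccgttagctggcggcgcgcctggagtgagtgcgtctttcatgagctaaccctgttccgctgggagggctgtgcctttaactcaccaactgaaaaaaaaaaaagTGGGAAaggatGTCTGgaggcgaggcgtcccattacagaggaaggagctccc
Ecm1 promoter: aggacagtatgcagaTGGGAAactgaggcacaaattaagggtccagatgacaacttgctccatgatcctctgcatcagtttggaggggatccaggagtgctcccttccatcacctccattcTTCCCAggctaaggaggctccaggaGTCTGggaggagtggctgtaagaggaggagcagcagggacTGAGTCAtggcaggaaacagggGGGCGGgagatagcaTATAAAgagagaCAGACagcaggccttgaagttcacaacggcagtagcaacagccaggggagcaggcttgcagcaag
Sparc promoter: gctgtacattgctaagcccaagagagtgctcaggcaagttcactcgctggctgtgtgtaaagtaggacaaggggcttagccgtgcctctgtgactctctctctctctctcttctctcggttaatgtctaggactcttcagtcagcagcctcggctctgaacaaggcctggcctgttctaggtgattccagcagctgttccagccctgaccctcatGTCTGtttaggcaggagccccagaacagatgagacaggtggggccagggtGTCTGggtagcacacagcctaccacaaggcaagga

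Motifs were searched on both strands in these letters: GGAATG for TEAD factors, TGANTCA for AP-1, CAGAC for SMAD proteins, TGGGAA for RBPJ, TATAAA for the TATA box, GGGCGG for the GC box, and the CArG box bound by SRF. The matches in the 3 printed windows do not overlap, except that the palindromic AP-1 match counts on both strands. The Ecm1 window held AP-1, SMAD, RBPJ, TATA and GC box matches, with TATAAA 27 bases before the start and the AP-1 match 64 bases before it. Of all 32851 promoter windows, 7.81% held an AP-1 match and 13.6% a TATAAA match. The printed Tnc window held SMAD, RBPJ, TATA and GC box matches, with its TATAAA 126 bases before the start. Tnc has another annotated start further downstream, with the window chr4:64046887-64047186, which is not printed. It held matches of the same motifs, and there the same TATAAA lies 205 bases before the start. The Sparc window held 2 SMAD matches and no other motif of the list, and 49.6% of all windows held a SMAD match.

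A promoter entry was found for 8 of the 10 genes. Among the 10 windows of these 8 genes, only the Tnn window held a TEAD match, against 14.7% of all windows. None of the 10 windows of these 8 genes held a CArG box, against 1.63% of all windows. RBPJ and GC box matches stood in 25.6% and 35.7% of all windows. A match is a run of letters, and the arrays do not measure binding.

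**Figure D1:**
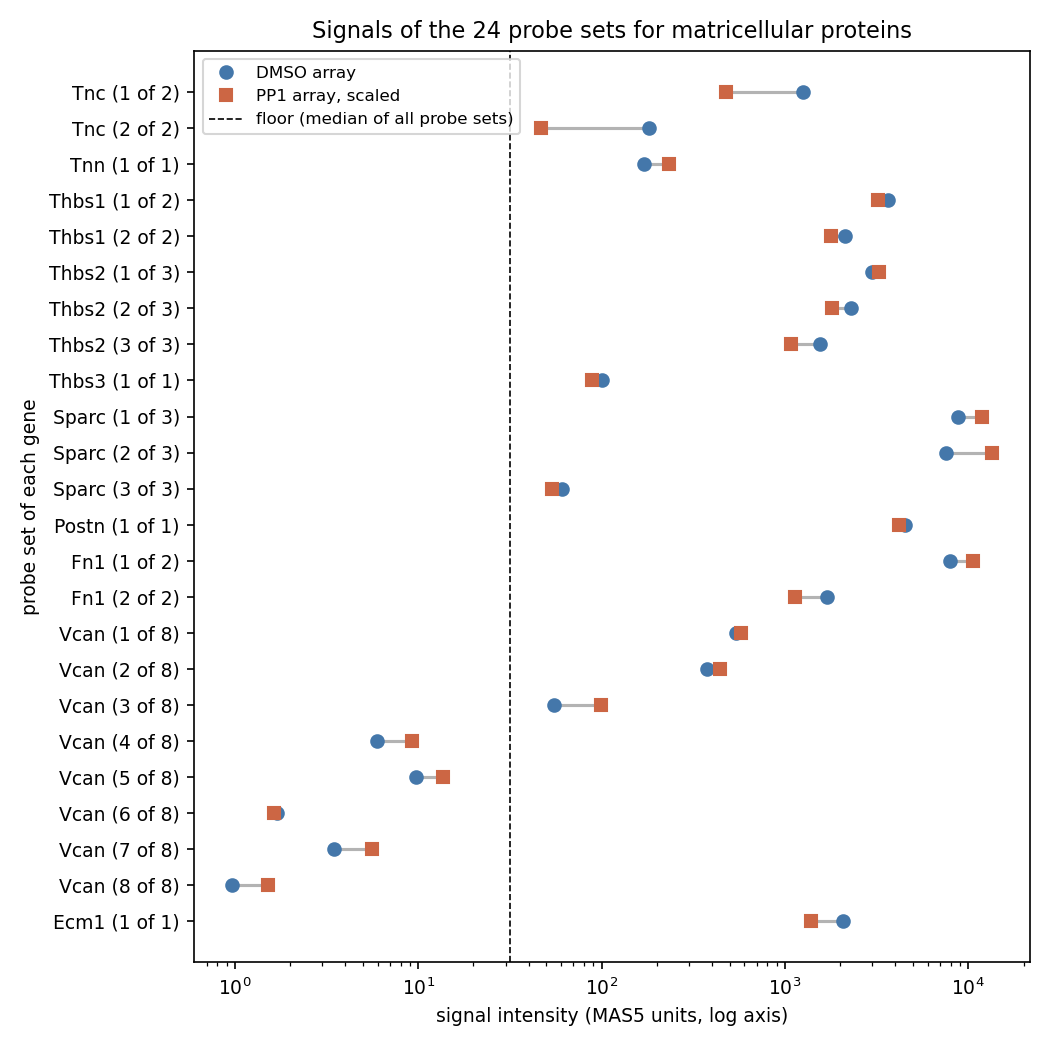
Signal of each of the 24 probe sets on the DMSO array (circles) and on the scaled PP1 array (squares), on a log axis of MAS5 signal units, with the floor of 31.7 as a dashed line. Both Tnc probe sets are far lower on the PP1 array, and 5 Vcan probe sets lie under the floor on both arrays.

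Tenascin-C was the only one of the 10 genes past 2-fold, and it was lower with PP1 by both of its probe sets. Tenascin-C is an adhesion-modulating glycoprotein made in developing and healing connective tissue and around bone-forming cells. The brighter probe set, 1416342_at, had a signal of 1255 on the DMSO array and 477 on the scaled PP1 array. The log2 ratio was -1.39, or 2.63-fold lower. The dimmer probe set, 1456344_at, went from 180.5 to 46.9, a log2 ratio of -1.94 or 3.85-fold lower.

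Both Tnc values lie further from 0 than the SD of 0.41 between probe sets of a gene. As deposited, with no scaling, the ratios were -2.14 and -2.69. Leaving out the scaling lowers every gene, so it could not have reversed this direction. With a loess fit, in which the trend of the ratio with signal is removed, the brighter probe set gave -1.33. Of 12133 measured genes, 58 had a lower ratio than Tnc. Among the 1213 genes of the same signal class, 1 of 10 classes by mean signal, 3 had a lower ratio, and the SD of the ratio in that class was 0.41. The second probe set was close to the floor on the PP1 array, where ratios are less precise.

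Tenascin-N, also called tenascin-W, is the family member most tied to bone and its periosteum, and it went the other way after scaling. Its only probe set, 1442140_at, had a signal of 169.8 with DMSO and 233.4 with PP1. The log2 ratio of 0.46 is 1.37-fold higher after scaling, but -0.29 as deposited. This difference is about the size of the SD of 0.41 between probe sets, and Tnn has no other probe set to set beside it.

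**Figure D2:**
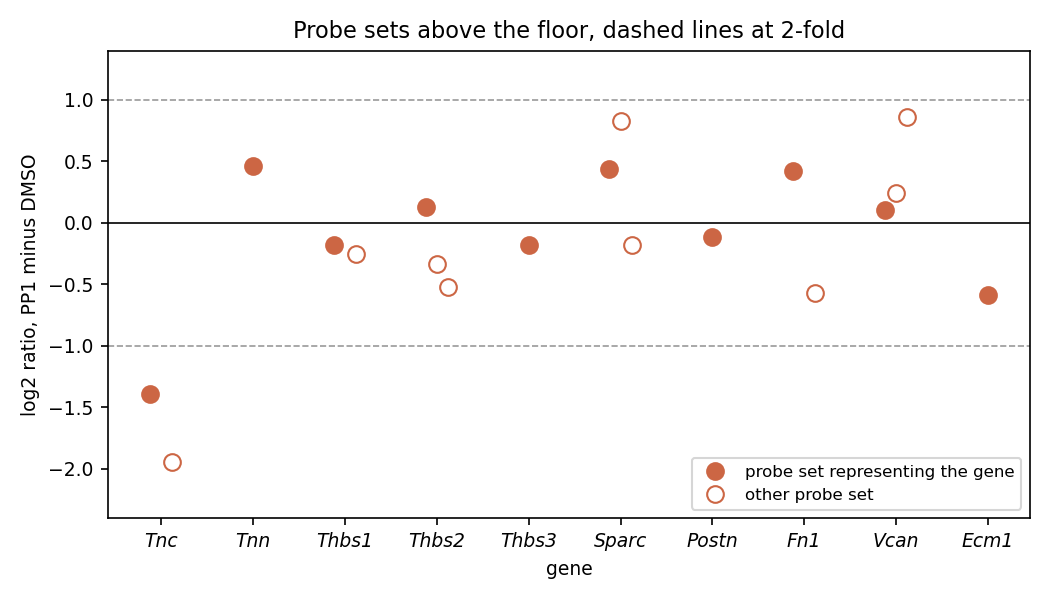
Log2 ratio, PP1 minus DMSO, of the 19 probe sets above the floor, by gene, with filled circles for the probe set that represents the gene and open circles for the others; dashed lines mark 2-fold. Only the 2 Tnc probe sets lie beyond 2-fold, and the probe sets of Thbs2, Sparc and Fn1 fall on both sides of 0.

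The thrombospondins were close to the bulk of genes. Thrombospondin-1, which activates latent TGF-beta and inhibits blood vessel growth, had signals of 3646 with DMSO and 3225 with PP1 by probe set 1460302_at. Its log2 ratio was -0.18, and that of its other probe set (2122 against 1779) was -0.25. Of the 6 genes for which more than 1 probe set was above the floor, Thbs1 had the closest values, and 92.1% of 4745 genes had a wider range. A further bright probe set, 1421811_at, which the annotation gives to both Pald1 and Thbs1 and which is not counted here, gave -0.06 (4388 against 4197).

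Thrombospondin-2, a regulator of collagen fibril assembly, had no direction that its probe sets shared. The brightest probe set gave 2984 with DMSO and 3260 with PP1, a log2 ratio of 0.13 after scaling. The next gave 2283 and 1812, a ratio of -0.33, and the dimmest gave 1559 and 1084, a ratio of -0.52. The median over the 3 was -0.33, and as deposited all 3 were below 0. Thrombospondin-3, a pentameric member found in growing cartilage and bone, had 1 dim probe set at 100.5 and 88.6, a ratio of -0.18.

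**Figure D3:**
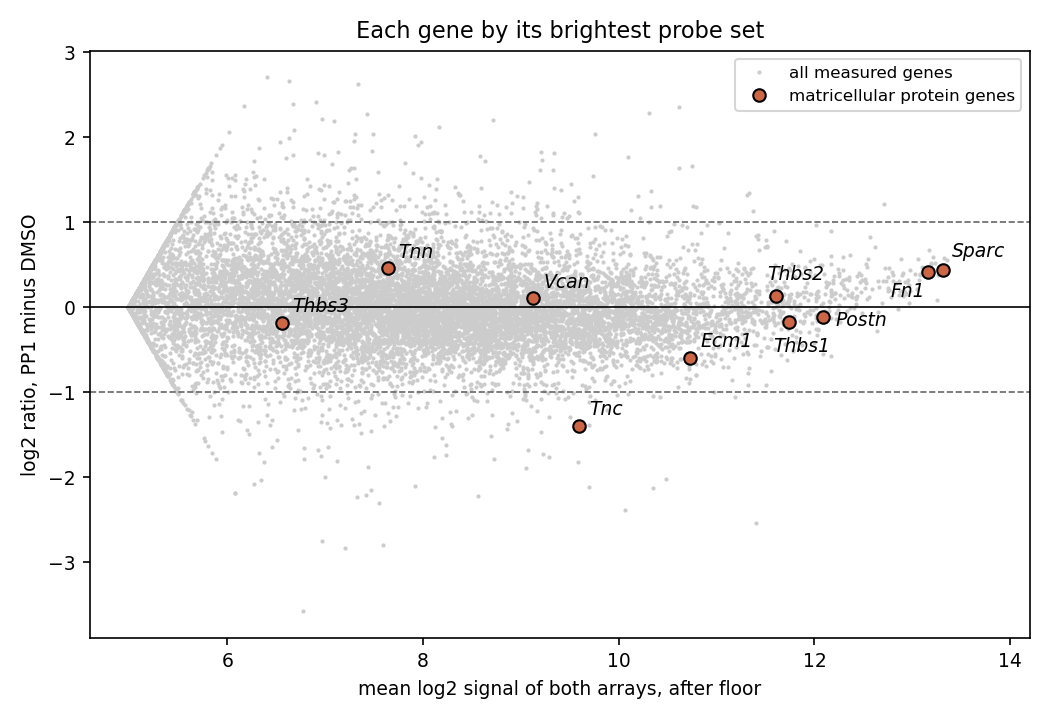
Log2 ratio, PP1 minus DMSO, against the mean log2 signal of both arrays for 12133 measured genes (grey) and the 10 matricellular genes (orange), each by its brightest probe set; dashed lines mark 2-fold. Tnc lies below the cloud, and Sparc and Fn1 lie at its bright end.

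Osteonectin and fibronectin were slightly higher by their brightest probe sets after scaling, and lower by those probe sets as deposited. Sparc had signals of 8747 with DMSO and 11867 with PP1 by probe set 1416589_at, a log2 ratio of 0.44 (as deposited -0.31). A second bright probe set, 1448392_at, gave 7580 and 13425, a ratio of 0.82, and stayed above 0 as deposited at 0.08. The remaining, dim probe set gave 60.9 and 53.8, a ratio of -0.18. The 3 Sparc probe sets thus spanned 1.00 on the log2 scale, a range that 14.8% of genes exceeded.

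Fibronectin had signals of 7929 and 10602 by probe set 1426642_at, a log2 ratio of 0.42 (as deposited -0.33). Its other probe set, 1437218_at, gave 1689 and 1140, a ratio of -0.57. The 2 probe sets therefore went opposite ways, 0.99 apart, and their median was -0.07. Genes as bright as these shared an upward shift: where the DMSO signal exceeded 7000, 32 of 33 genes had a ratio above 0, with a median of 0.37 and an SD of 0.18. Sparc and Fn1 are 2 of these genes, and the ratios of their brightest probe sets lie within that SD of the median. The other bright Sparc probe set, 1448392_at, had a ratio of 0.82, above the highest of the 33 genes, 0.67. With a loess fit, which removes the trend of the ratio with signal, the brightest probe sets gave 0.17 for Sparc and 0.17 for Fn1.

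Periostin, the adhesion protein of periosteum and other collagen-rich tissue, had signals of 4536 with DMSO and 4176 with PP1 by its only probe set. Its log2 ratio of -0.12 was well within the SD of 0.41. Versican had 8 probe sets, of which 3 were above the floor. They gave 537.3 and 578.0, 375.5 and 443.4, and 54.7 and 99.6, with ratios of 0.11, 0.24 and 0.86 after scaling. All 3 were above 0, the largest from the dimmest probe set, while as deposited the first 2 were below 0 at -0.64 and -0.51. The other 5 Vcan probe sets were under the floor on both arrays and give no ratio.

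Extracellular matrix protein 1, a secreted glycoprotein of skin, cartilage and bone, was the second lowest of the 10. Its only probe set, 1448613_at, had signals of 2085 with DMSO and 1384 with PP1. The log2 ratio of -0.59 is 1.51-fold lower, and as deposited it was -1.34. Of 12133 measured genes, 871 had a lower ratio, so Ecm1 lay in the lower 7.18%.

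Across the 10 genes, 5 had a ratio below 0 and 5 above 0 after scaling, with a median of -0.01 beside 0.01 for all measured genes. With both arrays centred on the median, 7 were below 0 and 3 above, as Thbs2 (-0.05) and Vcan (-0.07) turned. With the median over each gene's probe sets the counts were also 7 and 3, as Thbs2 (-0.33) and Fn1 (-0.07) turned. One gene, Tnc, was at least 2-fold lower against a background of 1.55%, and 0 genes were at least 2-fold higher against 3.02%. At 1.5-fold, Tnc and Ecm1 were lower, which is 2 of 10 against a background of 7.38%, and 0 were higher against 10.6%. The other 8 genes lay within 1.5-fold. Ecm1, at 1.51-fold by 1 probe set, was only just past this cut, and with loess its ratio of -0.56 fell short of it. By probe set, 2 of the 19 above the floor were at least 2-fold lower, both of them Tnc's, against 1.48% of 21219 named probe sets above the floor. The count at least 2-fold higher was 0 of 19 against 4.33%. As deposited, all 10 genes were below 0 by their representing probe set, and 2 of 19 probe sets, 1 each of Sparc and Vcan, were above 0.

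Each direction holds relative to the scale. Among all measured genes 188 were at least 2-fold lower and 366 higher after scaling to the trimmed mean. With both arrays centred on the median these were 351 and 224, as deposited 2883 and 50, and scaled to bacterial controls added at hybridization 3782 and 35. The median of all measured genes moved by -0.17, -0.72 and -0.80 in these settings.

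**Figure D4:**
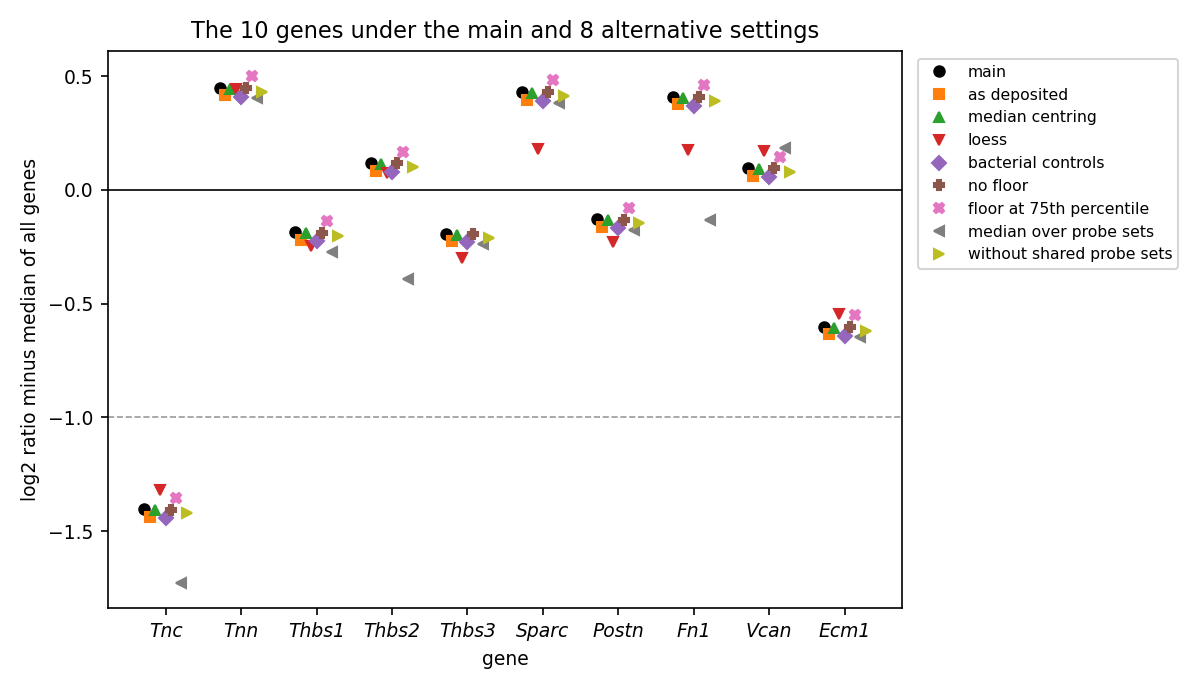
Log2 ratio of each of the 10 genes minus the median of all measured genes, under the main setting (black) and 8 alternatives (colours and shapes); Thbs3 has no value under the floor at the 75th percentile. Tnc stays between -1.73 and -1.32, and Thbs2 and Fn1 change sides when the median over probe sets is taken.

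The lists of related genes below were fixed by name with earlier results of these data known. Among 9 measured relatives of the tenascins, thrombospondins and Sparc, 6 were below 0, against 48.9% of all measured genes. Their median was -0.34, beside 0.01 for all measured genes. It was the value of a dim gene (53.3 with DMSO and 42.2 with PP1). Thrombospondin-4 (Thbs4), a tendon and muscle matrix protein, was 2.33-fold lower (872.0 with DMSO and 375.0 with PP1). Cartilage oligomeric matrix protein (Comp), the fifth thrombospondin, had 917.2 and 623.4, a log2 ratio of -0.56.

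At the other end of that list stood Sparcl1, the closest relative of Sparc, and tenascin-X (Tnxb), which organises collagen fibrils. Sparcl1 was 3.58-fold higher (94.3 with DMSO and 337.2 with PP1), and Tnxb 2.11-fold higher (59.1 and 124.4). In this list 1 of 9 genes was at least 2-fold lower and 2 of 9 higher, against 1.55% and 3.02% of all measured genes. Thbs4, Comp, Sparcl1 and Tnxb each rested on 1 probe set, and the last 2 were dim with DMSO.

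**Figure D5:**
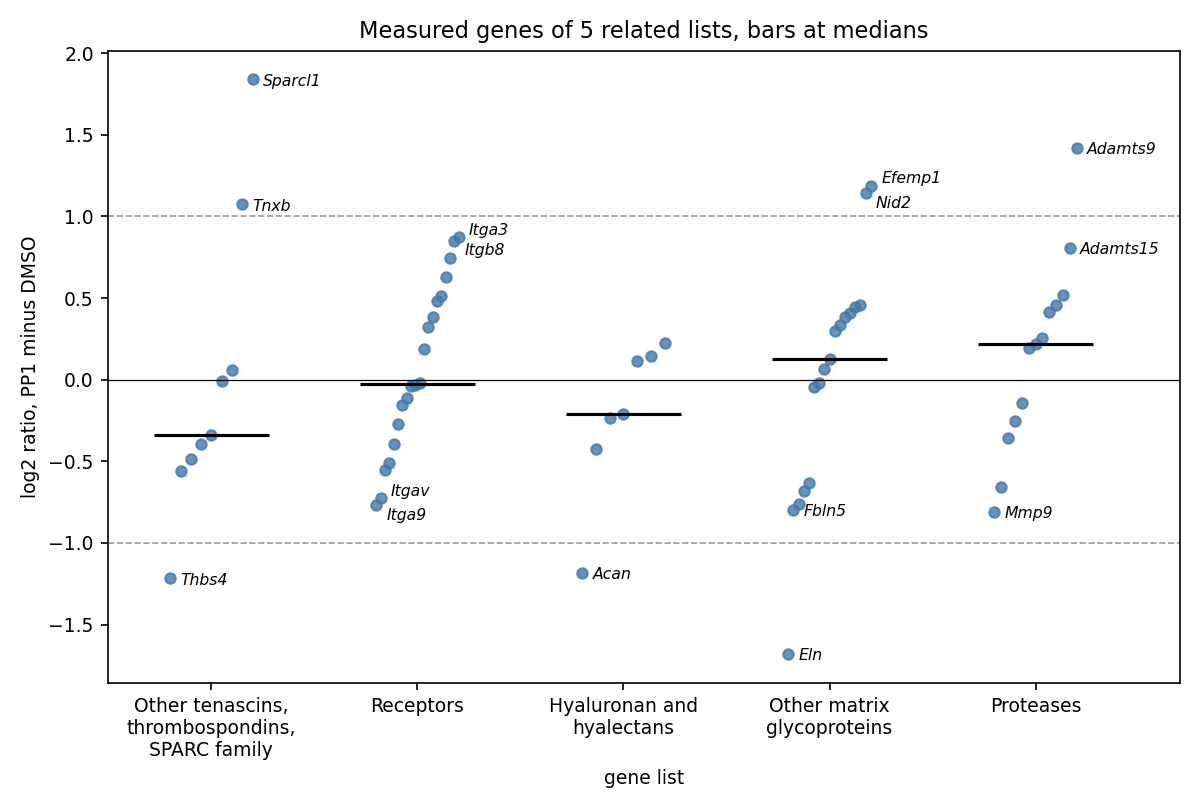
Log2 ratio, PP1 minus DMSO, of the measured genes in 5 related lists, 1 point per gene by its brightest probe set, with list medians as bars and 2-fold as dashed lines. List medians lie between -0.34 and 0.22, and 8 genes lie beyond 2-fold.

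The receptors of these proteins include integrins, syndecans, Cd36, Cd44 and Cd47. Of 20 measured receptors, 0 were past 2-fold in either direction, against 1.55% lower and 3.02% higher of all measured genes. Their median was -0.03, with 11 of 20 below 0, against 48.9% of all measured genes. Integrin alpha-9 (Itga9), a tenascin-C receptor, had the lowest ratio, -0.77 (153.9 with DMSO and 90.4 with PP1), and its 3 probe sets ran from -0.77 to -0.19. Integrin alpha-V (Itgav), which pairs with several beta chains to bind periostin and fibronectin, had a ratio of -0.73 from the brighter and 0.36 from the dimmer of its probe sets. The highest was Itga3 at 0.87, and its 3 probe sets above the floor ran from 0.32 to 0.87. Next was Itgb8, an activator of latent TGF-beta, at 0.85 from 1 probe set above the floor.

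Among 7 measured genes for enzymes and binding proteins of hyaluronan, which versican binds, 4 were below 0, against 48.9% of all measured genes. The median of -0.21 was the value of a gene that was under the floor on the PP1 array, so it is a bound. Aggrecan (Acan), the main cartilage proteoglycan, was 2.27-fold lower (166.6 with DMSO and 73.4 with PP1, 1 probe set). Of the 7 genes, 1 was at least 2-fold lower and 0 higher, against 1.55% and 3.02% of all measured genes. The hyaluronan synthase Has2 stood at -0.42, and at the upper end were the hyaluronidases Cemip at 0.15 and Hyal2 at 0.22.

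Of 17 other matrix glycoproteins measured, 1 was at least 2-fold lower and 2 were at least 2-fold higher, with a median of 0.13. The shares of all measured genes were 1.55% lower and 3.02% higher. Elastin (Eln) had the lowest ratio, -1.68 (964.4 with DMSO and 300.7 with PP1), but its dimmer probe set gave -0.07. Fibulin-5 (Fbln5), which assembles elastic fibres, stood at -0.80. Fibulin-3 (Efemp1) was 2.28-fold higher (1148 and 2617), and the basement membrane protein nidogen-2 (Nid2) 2.21-fold higher (754.1 and 1665).

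Among 13 measured proteases that cut these proteins, the median was 0.22. At least 2-fold lower were 0, against 1.55% of all measured genes, and 1 was at least 2-fold higher, against 3.02%. The higher one was Adamts9, which cleaves versican and aggrecan, at 2.68-fold (131.5 with DMSO and 352.0 with PP1), and its 3 probe sets ran from 0.73 to 1.57. Adamts15 was at 0.81 from a dim signal, while gelatinase B (Mmp9) was at -0.81 and Adamts4 at -0.66.

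The cell type markers give what moved beside these values. Of 13 osteoblast markers listed, Runx2, Bglap, Bglap2 and Spp1 were not found. Of 7 measured osteoblast markers, which include Sparc and Postn, 4 were above 0 and 3 below. The 4 were Col1a2 (0.52, with its lowest probe set at -0.91), Sparc (0.44), Col1a1 (0.39) and Alpl (0.37). Bone sialoprotein (Ibsp), a mineral-binding matrix protein, was 4.22-fold lower (159.1 with DMSO and 37.7 with PP1), the osteoblast transcription factor Sp7 stood at -0.43, and Phex and Dmp1 were under the floor on both arrays. The summed signal of the 9 osteoblast markers found was 29086 with DMSO and 37501 with PP1, most of it from Sparc, Col1a1 and Col1a2, which belong to the bright genes with a shared upward shift. Of 8 measured smooth muscle and pericyte markers, 7 were below 0, against 48.9% of all measured genes. At least 2-fold lower were Cspg4, Actg2, Cnn1 and Pdgfrb, 4 of 8 against 1.55% of all measured genes. Cnn1 was under the floor with PP1, and the other probe sets of Cspg4 (-0.68) and Pdgfrb (-0.63) did not reach 2-fold. The marker above 0, desmin (Des), was 2.69-fold higher from a dim signal (39.4 and 105.9), and 3.02% of all measured genes were at least 2-fold higher. The summed signals of this list were 14672 and 10080, and Myh11 was under the floor. Of 8 cartilage markers, which include Acan and Comp, 6 were below 0, with sums of 6240 and 5457. Macrophage markers were present on both arrays (sums of 15514 and 17990, 7 of 13 above 0). They ran from C1qb at -0.76 to Mrc1 at 1.11. Of the 13, 1 was at least 2-fold higher and 0 lower, against 3.02% and 1.55% of all measured genes. Among endothelial markers, 4 of 7 were under the floor. The part of these cell types in the values of Tnc, Ecm1 and the others was not tested. RNA quality can be read from control probe sets at both ends of a transcript. Their log2 ratio, 3′ over 5′, was 0.70 with DMSO and 0.19 with PP1 for Gapdh, 1.80 and 1.46 for Pcx, and 0.55 and 0.69 for Actb.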

How the data were processed

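Gene expression was measured on 2 mouse arrays, 1 per condition. The deposited values are linear signal intensities, made with MAS5 per the submitters' processing notes; no version or target scaling is stated there. Total RNA was extracted with Trizol and labelled as biotinylated cRNA, per the labels' protocols.

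The file held 45101 probe sets, 64 of them controls. Of the other 45037, 34945 were given 1 gene by the platform annotation, 932 several and 9160 none here. Symbols were updated by gene identifier through a RefSeq table of assembly GRCm38.p6, which matched 34741 of those with 1 gene. Measured genes were those whose brightest probe set exceeded the floor on 1 or both arrays (12133 of 18193).

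The ratios were computed from the scaled, floored signals on the log2 scale; the scale, floor and fold threshold are given in the results, and the trimmed means as deposited were 158.1 (DMSO) and 94.1 (PP1). The number of arrays limits the precision. Alternatives were the deposited scale, median centring, loess (span 0.3), bacterial controls (18 probe sets), a floor raised to percentile 75 or removed, the median over probe sets, omission of shared probe sets, and thresholds of 1.5-fold and 3-fold. The text names all 10 genes and, from each related list, the 2 highest, the 2 lowest and every gene past 2-fold. The genes and lists were chosen with earlier results of these data known. The scripts were checked on simulated data beforehand. Python 3.11.15, pandas 2.3.3, numpy 2.4.6 and statsmodels 0.14.6 were used.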

Additional observations from a re-analysis of the deposited data

How the results depend on the processing

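Tnc remained at least 2-fold lower under all 8 alternative scalings, floors and probe set choices, and no gene of the 10 was at least 2-fold higher under any. Most of these settings could not have changed the Tnc result. The deposited scale, median centring and bacterial controls all lower PP1 signals further. The floors and the omission of shared probe sets left the Tnc ratio at -1.39. Both Tnc probe sets were past 2-fold before their median was taken. Loess could have moved Tnc either way and gave -1.33. At 3-fold, 0 of the 10 were lower, and at 1.5-fold 2 were. The count of the 10 genes at least 2-fold lower was 2 as deposited (Tnc and Ecm1) and 4 when scaled to bacterial controls (with Thbs1 and Thbs3), and their median log2 ratio was -0.76 and -0.85. These 2 settings lower all genes together, and against the median of all measured genes the median of the 10 was -0.05 and -0.06. All measured genes at least 2-fold lower and higher numbered 2883 and 50 as deposited, 351 and 224 with median centring, 3782 and 35 with bacterial controls, 314 and 606 without a floor, and 84 and 111 with a floor at the 75th percentile. At 1.5-fold they numbered 896 and 1291, and at 3-fold 42 and 60. Against the median of all genes, Thbs2 (-0.39) and Fn1 (-0.13) changed sides when the median over probe sets was taken. Thbs3 had no value with the floor at the 75th percentile, since it was under that floor on both arrays. No paired analysis was possible because each condition has 1 array. Dim signals limit Thbs3, the second Tnc probe set and the third of Sparc and of Vcan.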
